A study of Homo sapiens with 12 samples.

Results

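This account concerns 7 genes of cell adhesion, extracellular matrix and the mesenchymal state in HepG2, an established human hepatocellular line, grown in 4 culture media. The genes FN1, COL1A1, TGFBI, SERPINE2, CDH1, CDH2 and VIM were chosen by name from earlier results on these same libraries. The gene-level counts between media were in view then, and which contrasts guided the choice is not recorded. Their differences between media are therefore given as a description, with SE and no p. Of the 7 genes, 6 were matched to rows of the count table, out of 10945 rows that carry a gene symbol. VIM was not analysed here.

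The libraries were made by QuantSeq, which reads the 3′ ends of polyadenylated transcripts. Wild-type HepG2 cells were seeded in EMEM and moved 24 h later to Plasmax (a medium modelled on human plasma), high-glucose DMEM (HGDMEM), low-glucose DMEM (LGDMEM) or fresh EMEM. They stayed there for 96 h with 1 renewal at 48 h, and every medium carried 10% heat-inactivated fetal bovine serum. Serum is itself a source of fibronectin protein, which the RNA counts do not see. Each medium had 3 libraries, 12 in all, and the labels do not say that these were separate cultures, so the spread between them may be technical. HepG2 is a single tumour line and not primary hepatocytes.

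The matrix is the protein mesh that cells secrete and hold on to through integrins. Fibronectin, encoded by FN1, and collagen I, whose alpha 1 chain is COL1A1, are structural matrix proteins, and TGFBI encodes a secreted adhesion protein first found as induced by TGF-beta. SERPINE2 encodes protease nexin 1, a secreted inhibitor of thrombin and plasminogen activators. CDH1 and CDH2 encode E- and N-cadherin, which join cells through calcium-dependent contacts, and hepatocytes make both. In the epithelial to mesenchymal transition (EMT), E-cadherin commonly goes down while N-cadherin, fibronectin, vimentin and collagen I go up.

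Counts on rows with a symbol summed to between 3995365 and 5840057 per library. Levels are in CPM, counts scaled to a common library total with TMM factors. On a principal component analysis the first component (37.1% of the variance) separated the Plasmax libraries, at 52.9 to 59.4, from the others, at −29.0 to −3.47. LGDMEM replicate 3 stood apart on the second component at −51.8, against −11.0 to 14.7 for the other 11. All 8 hepatocyte markers were detected, with a summed level of 11940 to 13510 CPM in Plasmax, 25540 to 28100 in HGDMEM, 22380 to 25150 in LGDMEM and 22870 to 23420 in EMEM. ALB was the largest part of the sum in every medium. AFP came next in HGDMEM, LGDMEM and EMEM, but in Plasmax APOB (3336 CPM) came before AFP (1793 CPM). Unlike the sum, SERPINA1 averaged more in Plasmax (1113 CPM) than in EMEM (752.1 CPM), as did APOB (3336 and 2902 CPM). Of 12 fibroblast and stellate cell markers 3 were measured (PDGFRB, ACTA2 and TAGLN), with a sum of 129.8 to 132.9 CPM in Plasmax, 104.7 to 117.9 in HGDMEM, 96.9 to 130.3 in LGDMEM and 138.1 to 177.5 in EMEM. Within this sum ACTA2 averaged more in Plasmax (71.6 CPM) than in EMEM (40.7 CPM). TAGLN (56.9 and 110.2 CPM) and PDGFRB (2.33 and 7.03 CPM) averaged less. Of 8 endothelial markers 1 was measured, TIE1, at 20.2 to 25.8 CPM in Plasmax and between 1.31 and 5.50 CPM in the other media. Of 8 leukocyte markers 3 were measured (CD14, CD68 and LYZ), with a sum of 1966 to 2193 CPM in Plasmax, 2710 to 3159 in HGDMEM, 2122 to 2885 in LGDMEM and 2657 to 3294 in EMEM. Nearly all of this sum was LYZ, which averaged 2094 CPM in Plasmax and 2972 CPM in EMEM. The highest mean of any medium was 4.89 CPM for CD14 (HGDMEM) and 9.55 CPM for CD68 (LGDMEM). The part of other cell types in the results was not tested. In bulk RNA, fewer cells making a transcript and less of it per cell cannot be told apart.

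Promoter windows from RefSeq were found for 5 of the 7 genes, and not for CDH1 or COL1A1. The windows, on build GRCh38.p14 and not the hg19 build of the counts, cover 250 bases before to 50 after a transcript start. Those of FN1, SERPINE2 and TGFBI are shown because these genes took opposite directions in Plasmax, and both starts of SERPINE2 are given because 3′ counts do not tell which was used. Capitals mark matches, on either strand, to any of 6 motifs searched: the GC box GGGCGG, the cAMP response element TGACGTCA, the AP-1 site TGANTCA, the E-box CACCTG, the SMAD box CAGACA and the TATA box TATAAA. FN1 lies at chr2:215436019-215436318 on the minus strand, SERPINE2 at chr2:224031429-224031728 (start 1) and chr2:224038591-224038890 (start 2) on the minus strand, and TGFBI at chr5:136028738-136029037 on the plus strand.
FN1: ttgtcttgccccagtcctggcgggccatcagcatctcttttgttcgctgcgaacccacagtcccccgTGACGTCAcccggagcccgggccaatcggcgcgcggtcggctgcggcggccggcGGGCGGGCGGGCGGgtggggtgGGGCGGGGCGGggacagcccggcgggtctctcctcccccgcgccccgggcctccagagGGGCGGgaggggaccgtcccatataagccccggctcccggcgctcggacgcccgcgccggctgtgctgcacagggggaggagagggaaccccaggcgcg
SERPINE2 start 1: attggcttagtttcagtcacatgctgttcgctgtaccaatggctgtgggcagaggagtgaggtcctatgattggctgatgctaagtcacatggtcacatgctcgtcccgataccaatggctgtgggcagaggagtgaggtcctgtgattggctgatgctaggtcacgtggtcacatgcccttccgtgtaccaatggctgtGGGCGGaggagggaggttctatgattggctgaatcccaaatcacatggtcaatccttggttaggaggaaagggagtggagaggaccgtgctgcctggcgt
SERPINE2 start 2: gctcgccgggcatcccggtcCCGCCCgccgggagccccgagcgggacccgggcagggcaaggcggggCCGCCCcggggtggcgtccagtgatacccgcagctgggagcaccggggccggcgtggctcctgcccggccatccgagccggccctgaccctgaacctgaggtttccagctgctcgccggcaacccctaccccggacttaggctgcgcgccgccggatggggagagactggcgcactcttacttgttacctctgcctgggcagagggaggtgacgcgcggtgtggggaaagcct
TGFBI: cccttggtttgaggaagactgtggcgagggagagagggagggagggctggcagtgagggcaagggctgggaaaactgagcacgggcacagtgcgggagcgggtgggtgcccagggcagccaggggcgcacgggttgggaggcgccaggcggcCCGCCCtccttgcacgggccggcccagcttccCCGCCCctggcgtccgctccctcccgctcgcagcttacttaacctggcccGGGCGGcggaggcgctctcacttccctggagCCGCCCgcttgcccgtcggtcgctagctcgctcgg

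The FN1 window held a cAMP response element 183 bases before the start, a motif present in 1.85% of 35116 promoter windows of this length. It also held 6 GC boxes, several of them overlapping. The GC box occurred in all 4 windows shown and in 45.0% of all windows. The second window of CDH2 held an AP-1 match (7.71% of all windows), a SMAD box (16.9%) and a TATA box (11.5%). No E-box of this form was found in the windows of FN1, CDH2, SERPINE2, TGFBI and VIM, against 20.6% of all windows. That says only that these letters are not in these stretches, and the CDH1 and COL1A1 promoters were not searched. A match is a sequence description and not evidence of binding.

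FN1 was higher in Plasmax than in every other medium. It stood at 7971, 6864 and 6981 CPM in Plasmax, at 3817, 4130 and 3726 CPM in HGDMEM, at 3279, 4057 and 5055 CPM in LGDMEM and at 4671, 5149 and 4369 CPM in EMEM. Every Plasmax library lay above all 9 others, while LGDMEM overlapped both HGDMEM and EMEM and was the most variable medium. The log2 fold change was 0.62 (SE 0.13) for Plasmax over EMEM, 0.82 (SE 0.13) over LGDMEM and 0.90 (SE 0.13) over HGDMEM. Fibronectin transcripts made up 0.684% to 0.793% of a Plasmax library and 0.427% to 0.514% of an EMEM library. Without LGDMEM replicate 3, the highest of its medium, the log2 fold change of Plasmax over LGDMEM was 0.985. Without LGDMEM replicate 1, the lowest, it was 0.675.

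COL1A1 was a rare transcript in these cells. Its raw counts were 39, 48 and 46 in Plasmax, 8, 0 and 12 in HGDMEM, 2, 42 and 9 in LGDMEM and 22, 23 and 29 in EMEM. The 3 Plasmax libraries exceeded those of HGDMEM and EMEM, but LGDMEM replicate 2, at 8.26 CPM, reached into the Plasmax range of 8.03 to 9.51 CPM. Summed over a medium, there were 133 counts in Plasmax (95% exact Poisson interval 111 to 158), 20 in HGDMEM (12.2 to 30.9), 53 in LGDMEM (39.7 to 69.3) and 74 in EMEM (58.1 to 92.9). These intervals cover counting error only. The single count of 0, in HGDMEM replicate 2, allows up to 3 counts. The log2 fold change of Plasmax was 0.78 (SE 0.72) over EMEM, 1.26 (SE 0.73) over LGDMEM and 2.75 (SE 0.81) over HGDMEM. Left without LGDMEM replicate 2, the middle value became 2.75, and without LGDMEM replicate 1 it became 0.77. The value over HGDMEM was 2.12 without HGDMEM replicate 2 and 3.58 without HGDMEM replicate 3.

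TGFBI went the opposite way to FN1. Its level was 125.8, 101.4 and 114.3 CPM in Plasmax, 153.8, 128.4 and 138.5 CPM in HGDMEM, 174.2, 185.8 and 215.5 CPM in LGDMEM and 211.2, 230.3 and 229.1 CPM in EMEM. The media were ordered Plasmax, HGDMEM, LGDMEM, EMEM from low to high. Ranges did not overlap between neighbours except for LGDMEM and EMEM. TGFBI had a log2 fold change of −0.97 (SE 0.13) for Plasmax over EMEM, −0.75 (SE 0.13) over LGDMEM and −0.30 (SE 0.13) over HGDMEM. Among the media other than Plasmax it was also lower in HGDMEM than in EMEM, at −0.67 (SE 0.13), and HGDMEM stood at −0.45 (SE 0.13) over LGDMEM.

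SERPINE2 differed most between Plasmax and the other media. The Plasmax libraries held 648.4, 644.5 and 677.8 CPM, the HGDMEM libraries 35.3, 73.0 and 44.2, the LGDMEM libraries 36.85, 56.6 and 65.2, and the EMEM libraries 78.6, 84.55 and 70.7 CPM. The other 9 libraries lay far below, at 35.3 to 84.55 CPM, and the EMEM range overlapped only that of HGDMEM. The level in Plasmax was 8.42 times that in EMEM (95% interval 6.23 to 11.4), 12.4 times that in LGDMEM (9.07 to 16.9) and 12.9 times that in HGDMEM (9.43 to 17.6). Replicates in Plasmax varied little, with a coefficient of variation of 2.77%, against 38.8% in HGDMEM, 27.5% in LGDMEM and 8.93% in EMEM.

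Both cadherins were higher on average in Plasmax. CDH2 stood at 272.5, 280.8 and 264.6 CPM in Plasmax, at 131.1, 160.1 and 167.5 CPM in HGDMEM, at 137.3, 124.0 and 148.1 CPM in LGDMEM and at 180.8, 180.7 and 172.7 CPM in EMEM. The Plasmax libraries were above all others and those of EMEM came next, above every library of HGDMEM and LGDMEM, which overlapped each other. The log2 fold change of Plasmax for CDH2 was 0.61 (SE 0.12) over EMEM, 1.00 (SE 0.12) over LGDMEM and 0.83 (SE 0.12) over HGDMEM.

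CDH1 was counted far less precisely. It had 42, 73 and 68 counts in Plasmax, 23, 21 and 18 in HGDMEM, 23, 49 and 34 in LGDMEM and 37, 34 and 10 in EMEM. In CPM the Plasmax range of 8.65 to 14.1 lay above HGDMEM, at 3.48 to 4.31, and overlapped LGDMEM, at 5.81 to 9.63, and EMEM, at 2.10 to 8.98. The log2 fold change of Plasmax was 1.10 (SE 0.43) over EMEM, 0.65 (SE 0.42) over LGDMEM and 1.65 (SE 0.44) over HGDMEM. EMEM replicate 3 was low at 2.10 CPM, and without it the value over EMEM was 0.704, while without EMEM replicate 1 it was 1.56 and passed the threshold. The ratio of CDH2 to CDH1 counts within a library, used here only between libraries, was 18.8 to 31.5 in Plasmax, 30.4 to 46.05 in HGDMEM, 12.9 to 23.65 in LGDMEM and 20.1 to 82.1 in EMEM. The cadherin ratios of Plasmax overlapped those of each other medium.

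**Figure D1:**
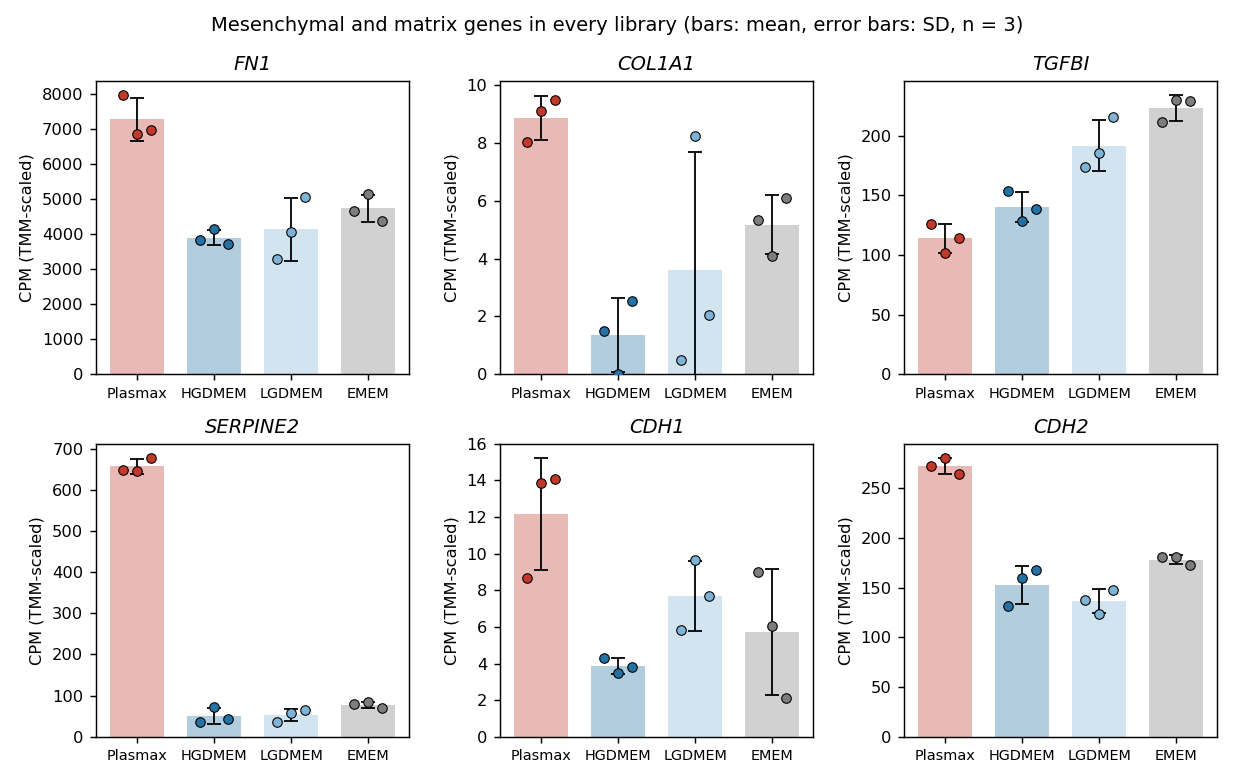
CPM (vertical axes, linear and starting at 0) of the 6 measured genes in the 12 libraries, with a point per library, bars for the mean of a medium and error bars for the SD (n = 3, clipped at 0 for COL1A1 in LGDMEM). SERPINE2 in Plasmax, at 644.5 to 677.8 CPM, stands apart from all other media, whereas TGFBI is lowest in Plasmax at 101.4 to 125.8 CPM.

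In the edgeR fit over all genes with Benjamini-Hochberg adjustment at 0.05, FN1, CDH2 and SERPINE2 were called higher and TGFBI lower in Plasmax than in EMEM, 4 of the 6. Of all genes tested 22.1% were called in that comparison, 10.0% higher and 12.1% lower. The called genes were also those 4 against LGDMEM, where 21.2% of all genes were called, 9.48% higher and 11.7% lower. Against HGDMEM the 5 genes other than TGFBI were called, all higher, where 26.9% of all genes were called, 12.8% higher and 14.1% lower. The choice of the genes drew on these libraries and the 3 comparisons share the Plasmax libraries, so nothing is read from these counts. Which calls depended on a setting is known from 14 or 15 alternatives per gene. CDH1 in Plasmax over EMEM passed in 3 of 15, COL1A1 in Plasmax over LGDMEM in 1 of 14, and COL1A1 in Plasmax over HGDMEM failed in 1 of 14.

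**Figure D2:**
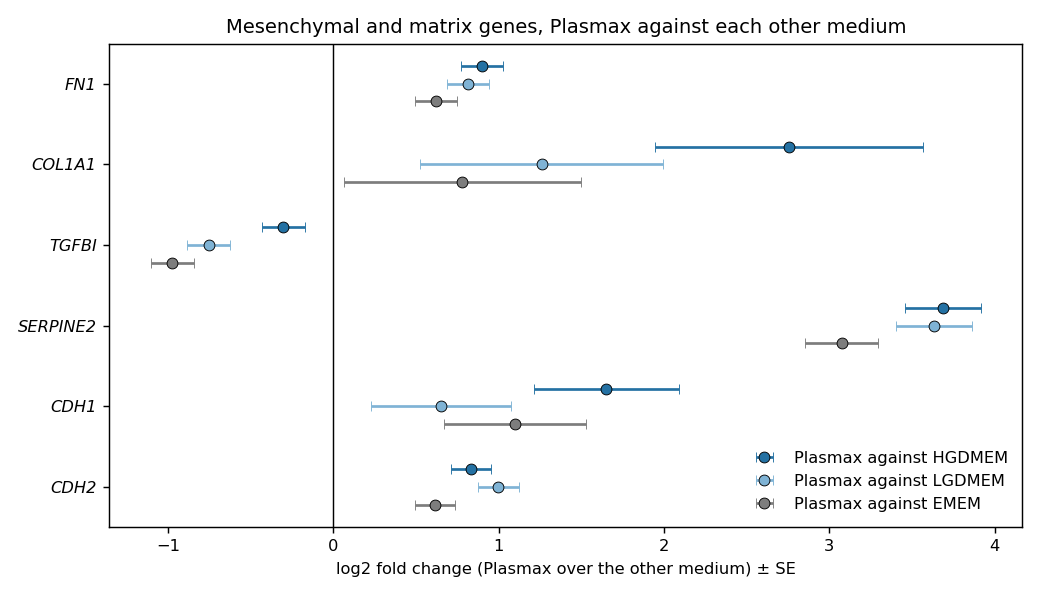
Log2 fold change of Plasmax over HGDMEM, LGDMEM and EMEM (horizontal axis, points with SE bars) for the 6 measured genes. SERPINE2 lies at 3.07 to 3.69, TGFBI is the gene below 0, and the bars of COL1A1 and CDH1 are the widest.

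Between the media other than Plasmax the genes differed less. In HGDMEM against EMEM, where 0.164% of all genes were called, TGFBI was the single gene of the 6 to pass, and it passed in 7 of 15 alternatives. It lost the call when any 1 of the 6 libraries was left out, with log2 fold changes between −0.74 and −0.61. In that comparison 4 of the 6 genes had an unadjusted p under 0.05 by edgeR, as had 7.58% of all genes. In LGDMEM against EMEM 0.0731% of all genes were called and in HGDMEM against LGDMEM 0.0640%. None of the 6 passed there by edgeR with Benjamini-Hochberg adjustment, nor in any alternative, DESeq2 and limma voom included, and 2 of the 6 had an unadjusted p under 0.05 in each, as had 7.91% and 7.86% of all genes. Those were CDH2 at −0.38 (SE 0.12) and SERPINE2 at −0.56 (SE 0.22) in LGDMEM over EMEM, and TGFBI and CDH1 in HGDMEM over LGDMEM, the CDH1 libraries of HGDMEM all lying below those of LGDMEM. Relative to EMEM, the mean level of FN1, CDH2, SERPINE2, TGFBI and COL1A1 was lower in both DMEM media, and that of CDH1 was lower in HGDMEM (3.87 CPM) and higher in LGDMEM (7.71 CPM) than in EMEM (5.71 CPM).

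The 6 genes did not change alike in size and direction. Over the 12 libraries, with each gene centred on its own mean of log2 CPM, FN1 and CDH2 were the closest pair, with a root mean square difference of 0.17. SERPINE2 and TGFBI were the farthest apart at 1.84. The measure grows with the size of a change, so genes that move the same way can lie far apart. FN1 and SERPINE2, both highest in every Plasmax library, differed by 1.2. Among 7843 genes that averaged 10 CPM or more, the nearest to FN1 were the adaptor SH3KBP1 (0.11), the TGF-beta receptor TGFBR2 (0.12) and the actin-associated PDLIM5 (0.12). Nearest to CDH2 were REXO2, an oligoribonuclease (0.12), the amyloid precursor-like APLP2 (0.13) and the junction protein afadin, AFDN (0.13). SERPINE2 was followed most closely by AREG, which encodes the EGF receptor ligand amphiregulin (0.41), by TMEM59L (0.50) and by the cell cycle inhibitor CDKN2B (0.51). TGFBI was nearest to the annexin A2 partner S100A10 (0.15), the SNARE protein VTI1A (0.17) and the folate enzyme FPGS (0.18). For CDH1 the nearest were DST, a cytoskeletal linker (0.33), XIAP (0.38) and PANX1 (0.39), and for COL1A1 CYR61, a secreted matricellular protein (0.77), TNS4 (0.78) and RIPPLY3 (0.82). The spread of FN1, CDH1 and COL1A1 around their own medium means was 0.148, 0.456 and 0.912, larger than the distances to their nearest genes. That of CDH2, SERPINE2 and TGFBI was smaller than theirs, at 0.0956, 0.284 and 0.109.

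Other genes of adhesion and matrix were counted in 11 lists with 269 genes, of which 169 were measured. The lists, too, were chosen with earlier results of these data known, so their shares are a description and no support is drawn from them. In Plasmax against EMEM 51 of them rose and 24 fell, 44.4%, beside 22.1% of all genes, and their median log2 fold change was 0.14 beside 0.02 over all genes. Against LGDMEM 57 rose and 17 fell (43.8%, beside 21.2% of all genes), and against HGDMEM 64 rose and 22 fell (50.9%, beside 26.9%). Called genes were spread unevenly over the lists. P-values below are from edgeR's quasi-likelihood test, adjusted over all 10945 genes, for Plasmax over EMEM unless another medium is named. The standard error stands beside each log2 fold change over EMEM. Genes named by rule were picked for large changes in these same data, so their p-values only describe them.

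**Figure D3:**
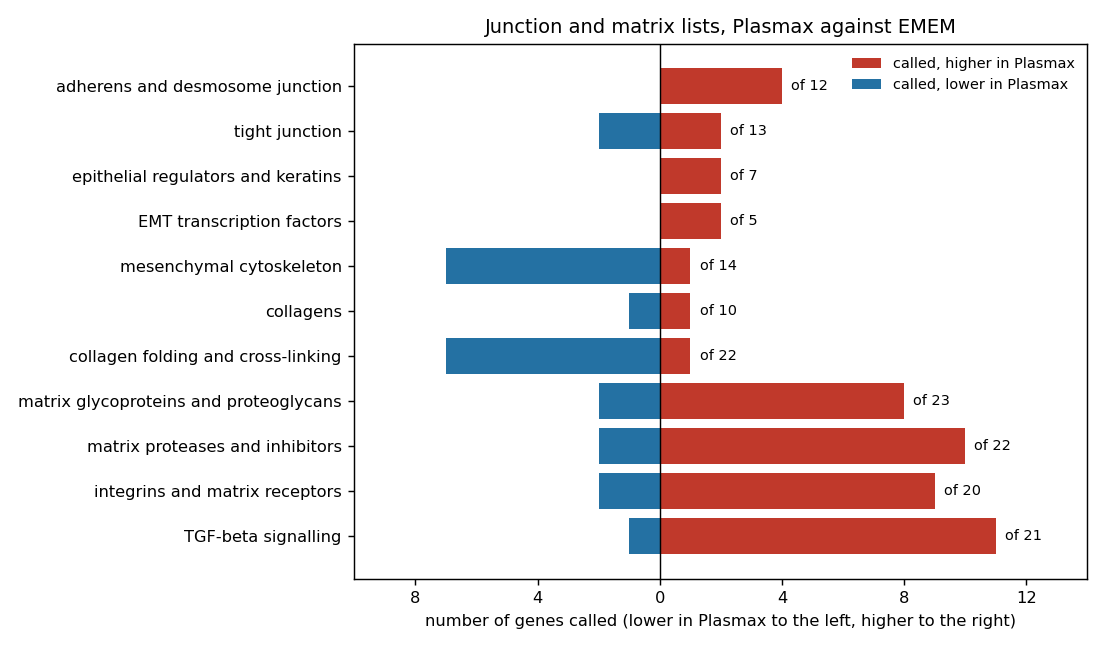
Number of genes called in Plasmax against EMEM (horizontal axis) in each of the 11 lists, those higher in Plasmax to the right in red and those lower to the left in blue, with the number measured beside each bar. TGF-beta signalling had 11 higher and 1 lower of 21, and the mesenchymal cytoskeleton 1 higher and 7 lower of 14.

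Among matrix proteases and their inhibitors, the class of SERPINE2, 10 of 22 rose and 2 fell (54.5%, beside 22.1% of all genes). Their median log2 fold change was 0.63. TIMP1, an inhibitor of matrix metalloproteinases, stood at 310.8, 365.3 and 362.4 CPM in Plasmax and at 69.7, 75.65 and 66.3 CPM in EMEM, and rose by 2.29 (SE 0.175, adjusted p = 7.33e-08). The urokinase receptor PLAUR stood at 102.2, 99.3 and 110.6 CPM in Plasmax and at 30.1, 42.0 and 24.2 CPM in EMEM (1.69, SE 0.21, adjusted p = 1.61e-05). Urokinase itself, PLAU, which protease nexin 1 inhibits, rose by 1.65 (SE 0.40, adjusted p = 0.00595). All 3 also rose against LGDMEM and against HGDMEM.

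Integrins and other matrix receptors had 9 of 20 up and 2 down (55%, beside 22.1%), with a median of 0.41. ITGA1, the alpha 1 chain of a collagen receptor, was at 88.4, 71.85 and 77.1 CPM in Plasmax and at 22.3, 21.0 and 18.9 CPM in EMEM, and rose by 1.93 (SE 0.20, adjusted p = 1.86e-06). ITGA2, of another collagen receptor, rose by 1.28 (SE 0.23) and ITGA6, of a laminin receptor, by 1.09 (SE 0.125), with adjusted p of 0.000746 and 6.79e-06. The 3 integrin chains were called in the same direction against LGDMEM and HGDMEM.

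In TGF-beta signalling 11 of 21 genes rose and 1 fell (57.1%, beside 22.1%), with a median of 0.59. Against LGDMEM 7 rose and 1 fell (38.1%, beside 21.2%), and against HGDMEM 12 rose and 1 fell (61.9%, beside 26.9%). The ligand gene TGFB1 averaged 21.7 ± 8.22 CPM in Plasmax and 8.90 ± 2.86 CPM in EMEM (SD, n = 3 each) and rose by 1.29 (SE 0.39, adjusted p = 0.0243). Its call was lost in 5 of 15 alternatives, among them without EMEM replicate 2 or 3 and without Plasmax replicate 1 or 3. INHBE, an activin chain made by liver, rose by 2.26 (SE 0.48, adjusted p = 0.00247) over EMEM, where its libraries spread from 3.64 to 25.3 CPM. The rise of INHBE was 3.16 without EMEM replicate 2 and 1.84 without EMEM replicate 1. NREP, a small protein linked to TGF-beta, fell by 1.55 (SE 0.30, adjusted p = 0.00127). Neither TGFB1 (1.03, adjusted p = 0.0676) nor INHBE (0.59, adjusted p = 0.379) passed against LGDMEM. Both passed against HGDMEM, and NREP fell against both media.

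Of the matrix glycoproteins and proteoglycans, which include fibronectin's partners, 8 of 23 rose and 2 fell (43.5%, beside 22.1%), with a median of 0.41. SPARC, a collagen-binding protein, was at 48.6, 48.3 and 51.7 CPM in Plasmax and at 111.2, 114.8 and 104.3 CPM in EMEM, and fell by 1.15 (SE 0.20, adjusted p = 0.000444). The cartilage matrix gene MATN3 rose by 0.99 (SE 0.20, adjusted p = 0.00165), and VTN, encoding vitronectin, by 1.03 (SE 0.32, adjusted p = 0.0246). The VTN call was lost in 6 of 15 alternatives, among them without any 1 of the EMEM libraries and without Plasmax replicate 2 or 3, and VTN did not pass against HGDMEM (0.68, adjusted p = 0.114).

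Collagens other than COL1A1 showed 1 up and 1 down of 10 measured (31 listed), a share of 20% beside 22.1% of all genes. Against LGDMEM they showed 3 up and 1 down (40%, beside 21.2%) and against HGDMEM 2 up and 1 down (30%, beside 26.9%). COL2A1, the cartilage collagen, had 6.18, 8.72 and 8.68 CPM in Plasmax against 36.4, 43.25 and 50.5 CPM in EMEM, and fell by 2.46 (SE 0.21, adjusted p = 2.93e-07). COL9A3 rose by 0.42 (SE 0.14, adjusted p = 0.0399), a call lost in 5 of 15 alternatives, among them without any 1 EMEM library and without Plasmax replicate 1. Enzymes and chaperones that fold and cross-link collagen had 1 up and 7 down of 22 over EMEM (36.4%, beside 22.1%), with a median of −0.59. The prolyl isomerase FKBP14 fell by 1.18 (SE 0.22, adjusted p = 0.000754), the prolyl hydroxylase subunit P4HA2 by 0.93 (SE 0.22, adjusted p = 0.00551) and the cyclophilin PPIB by 0.87 (SE 0.25, adjusted p = 0.0201). PPIB lost its call in 4 of 15 alternatives, among them without EMEM replicate 2, Plasmax replicate 1 or Plasmax replicate 3. P4HA2 passed neither against LGDMEM (−0.51, adjusted p = 0.116) nor against HGDMEM (−0.50, adjusted p = 0.109).

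The mesenchymal cytoskeleton list, the class of VIM, had 1 up and 7 down of 14 (57.1%, beside 22.1%), with a median of −0.37. S100A4, a calcium-binding protein used as a fibroblast marker, averaged 4.96 ± 3.84 CPM in Plasmax and 16.9 ± 2.65 CPM in EMEM (SD, n = 3 each) and fell by 1.77 (SE 0.42, adjusted p = 0.00539). Without Plasmax replicate 1 the log2 fold change of S100A4 was −2.52, and without Plasmax replicate 3 it was −1.34. The actin-binding TAGLN fell by 0.95 (SE 0.18, adjusted p = 0.00109), while smooth muscle actin, ACTA2, rose by 0.81 (SE 0.24, adjusted p = 0.0202). The ACTA2 call was lost in 4 of 15 alternatives, among them without EMEM replicate 1, Plasmax replicate 1 or Plasmax replicate 3. Against LGDMEM this list had 3 up and 4 down (50%, beside 21.2%) and against HGDMEM 3 up and 3 down (42.9%, beside 26.9%). TAGLN was not called against either (adjusted p = 0.24 and 0.992). ACTA2 was called against LGDMEM and not against HGDMEM (0.53, adjusted p = 0.105).

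Of 12 EMT transcription factors 5 were measured and 2 rose (40%, beside 22.1%). SOX4 was at 123.8, 111.8 and 111.0 CPM in Plasmax and at 31.55, 33.6 and 45.4 CPM in EMEM, and rose by 1.65 (SE 0.18, adjusted p = 4.38e-06), and SOX9 rose by 0.46 (SE 0.14, adjusted p = 0.023). Without EMEM replicate 1 or 3 or Plasmax replicate 2, SOX9 was not called. Among those that did not pass were the CDH1 repressors SNAI1, at −0.15 (SE 0.67, adjusted p = 0.905), and ZEB1, at 0.04 (SE 0.30, adjusted p = 0.945), named after their values were seen.

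Epithelial genes, the class of CDH1, showed 8 called higher and 2 called lower over 3 lists. The shares called, in the order of the lists below, were 33.3%, 30.8% and 28.6%, beside 22.1% of all genes. The median log2 fold changes were 0.155, 0.028 and 0.098, beside 0.02 over all genes. Adherens junction and desmosome genes had 4 up and 0 down of 12, with desmoplakin, DSP, rising by 0.88 (SE 0.15, adjusted p = 0.000417), alpha-catenin, CTNNA1, which links cadherins to actin, by 0.73 (SE 0.13, adjusted p = 0.00059) and EPCAM by 0.53 (SE 0.12, adjusted p = 0.00401). All 3 rose against LGDMEM and HGDMEM too. Tight junction genes had 2 up and 2 down of 13, with CLDN1 down by 0.76 (SE 0.13, adjusted p = 0.000432) and TJP1 up by 0.77 (SE 0.24, adjusted p = 0.0256). The TJP1 call was lost without EMEM replicate 1 or 3 or Plasmax replicate 1, and TJP1 did not pass against LGDMEM (adjusted p = 0.164) or HGDMEM (adjusted p = 0.0521). Of 7 measured epithelial regulators and keratins 2 rose, KRT19 by 0.94 (SE 0.11, adjusted p = 1.3e-05) and KRT18 by 0.44 (SE 0.12, adjusted p = 0.0137). KRT18 has many processed pseudogenes, which makes its count less certain, and was not called without EMEM replicate 3.

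**Figure D4:**
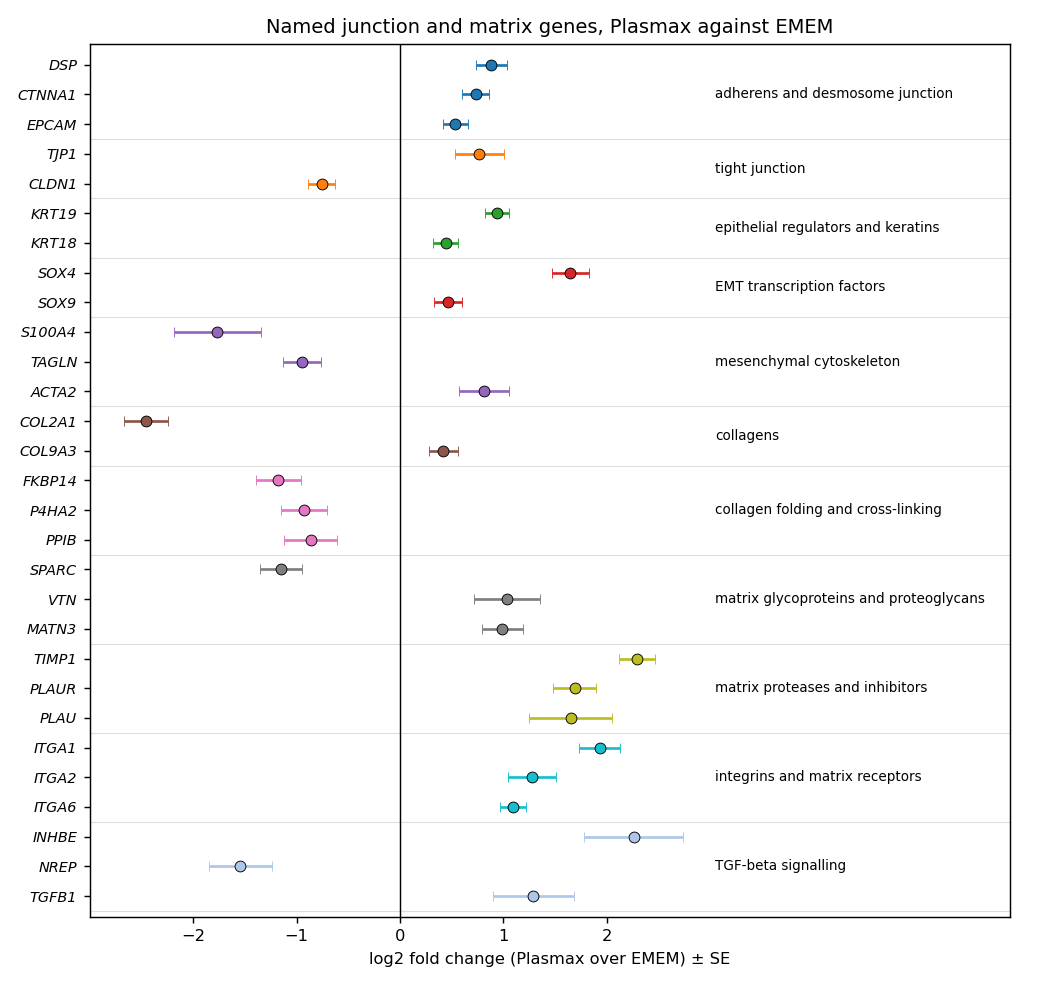
Log2 fold change of Plasmax over EMEM (horizontal axis, points with SE bars) for the named genes of the 11 lists, in 1 colour per list. The 3 genes of the protease and inhibitor list and the 3 integrin chains lie above 1, and the 3 collagen folding genes lie below 0.

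In HGDMEM against EMEM 0 list genes rose and 4 fell (2.37%, beside 0.164% of all genes), named after their values were seen. They were MATN3 at −1.41 (SE 0.205, adjusted p = 0.009), SDC4, a cell surface proteoglycan, at −0.88 (SE 0.15, adjusted p = 0.0203), TAGLN at −0.95 (SE 0.18, adjusted p = 0.0401) and CYR61 at −1.83 (SE 0.36, adjusted p = 0.0459). Like TGFBI, TAGLN and CYR61 lost their call whenever any 1 of the 6 libraries was left out. SDC4 lost it without EMEM replicate 1 or 3 or any HGDMEM library, and MATN3 without HGDMEM replicate 1 or 2. In LGDMEM against EMEM and in HGDMEM against LGDMEM 0 of the 169 list genes were called by edgeR with adjustment, and DESeq2 called 3 in each. Of the 169, 33 and 25 had an unadjusted p under 0.05 by edgeR, a larger share than over all genes. There it was 866 and 860 of 10945 (7.91% and 7.86%).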

How the data were processed

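The authors deposited 1 table of raw whole-number counts per gene for 12 libraries, with no stated normalization, and the labels name QuantSeq 3′ libraries. Per the submitters' processing notes, the build was hg19 (GRCh37) and the tools were STAR 2.7.5b, featureCounts 1.6.3, cutadapt 1.16, limma 3.40.6 and FastQC 0.72, with no role or order given. Whether counting used strand is not given in the sources used here. Rows had been filtered before deposit by an unstated rule, since the third highest CPM of a row was at least 2.51. All 6 measured genes met that value in the libraries outside Plasmax too. Of 11546 rows, 601 without a symbol (2.92% to 3.71% of counts) were left out.

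From the deposited counts, edgeR 4.0.16 in R 4.3.3 fitted all 10945 genes and 12 libraries at once (TMM scaling, quasi-likelihood test, Benjamini-Hochberg adjustment at 0.05, no replicate block). Its low-count filter removed 0 genes. SE was taken as |log2 fold change| / √F, and 95% fold intervals are ±1.96 SE. Log2 CPM used a prior count of 2. The procedure was also run on simulated counts, with far fewer changed genes than were called here and no outlying library. That run therefore does not vouch for the fit to these data. Alternatives used DESeq2 1.42.0, limma 3.58.1 (voom), other scalings, a filter of 5 CPM, an adjusted p of 0.01, fewer libraries and a replicate block.

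The genes and the 11 lists were chosen with earlier results of these data known. Named list genes are, per list, the up to 3 called genes with the largest change in Plasmax over EMEM, among those averaging 10 CPM or more whose libraries do not overlap. Nearest genes are the 3 with the smallest root mean square difference. Genes named otherwise are marked as seen first, and a few listed genes are counted but not reported here by name. Promoter windows are RefSeq's.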

Additional observations from a re-analysis of the deposited data

How the results depend on the processing

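The 6 genes kept their direction in Plasmax against each other medium under all alternatives run. Of 498 alternative fold changes of the 6 genes over all comparisons, 495 moved by less than the replicate SD, 3 by more, all of COL1A1, and none that was called changed sign. Among the 30 list genes that the naming rule picked, 22 kept their call over EMEM in every setting, which for the named genes were added after the data were seen. COL1A1 fell under the 5 CPM filter and has no value there. Counts of called genes moved more. At an adjusted p of 0.01, 1290, 1254 and 1711 genes were called in Plasmax against EMEM, LGDMEM and HGDMEM (main counts 2417, 2321 and 2947), with 46 list genes against EMEM (75), and 2 genes in LGDMEM against EMEM (8) and 2 in HGDMEM against EMEM (18), with 0 of the 6 genes and 1 list gene in the last. DESeq2 called 65, 68 and 55 genes in LGDMEM against EMEM, HGDMEM against EMEM and HGDMEM against LGDMEM (8, 18 and 7), with 3, 10 and 3 list genes (0, 4 and 0). The fit to the 2 media alone called 2, 43 and 2 genes there. Voom called 4 genes in HGDMEM against LGDMEM, and 1 list gene in LGDMEM against EMEM. Library-size scaling gave 1 list gene in LGDMEM against EMEM, and 2 list genes and 0 of the 6 genes in HGDMEM against EMEM. The cause of these shifts was not tested.

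Leaving out 1 library at a time gave 49 to 62 list genes for Plasmax against EMEM, with 49 without EMEM replicate 1. It gave 2 to 87 genes and 0 to 2 list genes in LGDMEM against EMEM, and 4 to 118 genes and 0 to 9 list genes in HGDMEM against LGDMEM, the highest of each without LGDMEM replicate 1. It gave 1 to 7 genes, 0 to 2 list genes and 0 to 0 of the 6 genes in HGDMEM against EMEM.

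Media share replicate numbers, but over all genes tested no comparison had all 3 correlations of same-numbered deviations above 0.1. Among the 4366 more abundant genes (log2 CPM over 5 on average) they did for HGDMEM set against EMEM (0.186, 0.11 and 0.124) and LGDMEM (0.246, 0.165 and 0.21), where every library also correlated best with its own number, a hint from the data and not the design. The numbers were not taken as a pairing. With the replicate block, 15 genes were called in LGDMEM against EMEM, 1 of them a list gene, and 15 in HGDMEM against LGDMEM. The calls of the 6 genes were the same with the block. Depth limits CDH1 and COL1A1, whose media summed to 20 to 183 counts.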
